A study of Mus musculus with 48 samples.

Results

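The late response of the neonatal mouse brain to systemic interleukin-1 beta (IL1B) was compared between O4+ cells of the oligodendrocyte lineage and CD11B+ microglia at postnatal day 10 (P10). The arrays were chosen by title, as the 24 of 48 arrays of stage P10, with 6 in each of the groups O4+ PBS, O4+ IL1B, CD11B+ PBS and CD11B+ IL1B. For each of 55681 probes, the change from PBS to IL1B in CD11B+ cells was subtracted from the same change in O4+ cells. This difference of responses, on the log2 scale, is called the interaction here. It is positive where the response was more positive in O4+ cells and negative where it was more positive in CD11B+ cells, so that a positive value can come from a rise in O4+ cells, a fall in CD11B+ cells, or both.

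All 4 groups were male mice, of a swiss strain in the labels and OF1 in the study's methods, with no genetic change named in the labels. Pups received intraperitoneal PBS or IL1B (10 ng/g) from P1 to P5, and cells were taken at P10, 5 days after the last injection. O4+ cells and then CD11B+ cells were enriched from the same dissociated brains with magnetic beads, so the populations are selected by a surface antigen and neither is pure. By the study's methods, several brains were pooled for each sorted sample, and cerebellum and olfactory bulbs were left out. The free-text description of the P10 arrays repeats the stage and schedule of other arrays, and the title, source name and stage label were followed here. RNA was labelled with a single dye and hybridised to Agilent mouse arrays.

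O4 is a surface lipid antigen carried by late oligodendrocyte progenitors and immature oligodendrocytes, the cells that go on to wrap axons in myelin. CD11B is an integrin chain of microglia, the resident macrophages of the brain, and of other myeloid cells. IL1B signals through its receptor to the transcription factor NF-kappaB, which drives genes for chemokines and cytokines, and inflamed tissue also induces interferon-responsive genes for antigen presentation.

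Between 52.9% and 62.9% of probes were well above background on each array. The mean correlation of an array with the others of its group ran from 0.9837 to 0.995. The 24 arrays lay on 4 slides that were not balanced over the groups. Slide 1 held 5 O4+ PBS and 2 O4+ IL1B arrays, slide 3 held 3 O4+ IL1B and 4 CD11B+ PBS arrays, and slide 4 held 2 CD11B+ PBS and 5 CD11B+ IL1B arrays. Slide 2, scanned on another day, held 1 array each of O4+ PBS, O4+ IL1B and CD11B+ IL1B. The O4+ PBS and O4+ IL1B arrays there, array 6 of each group, had the lowest mean correlations with their groups, 0.9837 and 0.9862. Results are therefore also given from a fit with the slide as a block, whose direct comparisons come from the few slides that hold both treatments of a cell type. For CD11B+ cells that is slide 4 alone.

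CD11B+ PBS array 6 stood apart from its group. It lay on slide 4, beside the IL1B arrays, and its mean correlation with its group was 0.990, against 0.993 to 0.994 for the other 5. For Ccl5 it read 11.72 on the log2 scale, within the range of the CD11B+ IL1B arrays, whereas the next highest CD11B+ PBS array lay 3.35 lower. It was kept, and counts without it are given beside those with it, a choice made after its values were seen. Whether this array carries the label of the other treatment was not tested. Without it slide 4 holds a single CD11B+ PBS array, so values given with the block and without array 6 rest within that slide on 1 PBS array and otherwise on indirect comparisons across slides.

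The response to IL1B differed between the populations at 4263 probes by limma's interaction test with Benjamini-Hochberg adjustment over all probes, or 7.66% of those tested. Of these, 2203 (3.96% of all probes) were more positive in O4+ cells and 2060 (3.70%) more negative, a share of 51.7% more positive. These probes carried 1537 and 1403 gene symbols, respectively. At an unadjusted p under 0.05 there were 11629 probes. With each array scaled to its 75th percentile the more positive share was 19.2%, and in the authors' normalized matrix 14.9%, because those scalings moved the median interaction of all probes from -0.01 to -0.18 and -0.22. Directions below are relative to the median of quantile-normalized arrays. With the slide as a block 2391 probes passed, 1072 (1.93%) more positive and 1319 (2.37%) more negative, and 1706 of the 4263 still passed. All 4263 kept their sign in that fit. Without CD11B+ PBS array 6, 4959 passed, of which 3990 were among the 4263.

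A response within a population counted as called where limma's adjusted p was below 0.05 and the group medians differed by more than 1.5 times. In O4+ cells 1512 probes rose (2.72%) and 887 fell (1.59%), and in CD11B+ cells 939 rose (1.69%) and 746 fell (1.34%). Counts of list members below are to be read beside these shares and those of the interaction. The slide block gave 2055 calls in O4+ cells and 375 in CD11B+ cells, and leaving out CD11B+ PBS array 6 gave 2500 and 2759. Of the 1685 CD11B+ calls 354 remained with the block, and 917 with the block and without that array. Of the 4263 interaction probes, 2850 were called in neither response.

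**Figure D1:**
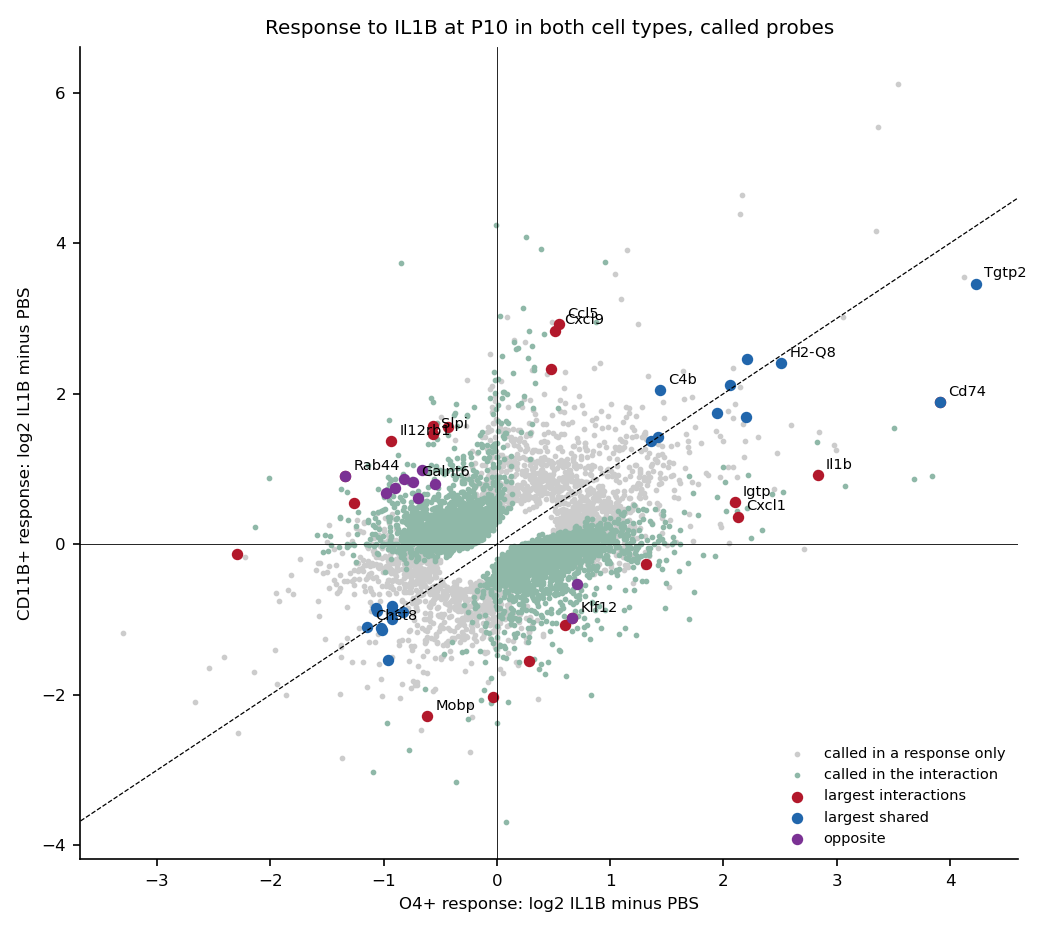
Log2 change from PBS to IL1B in O4+ cells (x axis) against the same change in CD11B+ cells (y axis) at P10, for probes called in the interaction or in a response, 6 arrays per group. Red, blue and purple points are the probes with the largest interactions, the largest shared responses and opposite responses, and Ccl5 and Cxcl9 lie above the diagonal while Cxcl1, Il1b and Igtp lie below it.

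Chemokines rose in O4+ cells with IL1B at P10 for 9 of 16 members measured, and Cxcl1 and Il1b were among the largest positive interactions. Of the 16 chemokines, 7 had a more positive response in O4+ than in CD11B+ cells and 2 a more negative one, against 3.96% and 3.70% of all probes. The median interaction of the list was 0.78 (O4+ response 0.88, CD11B+ response 0.32), against -0.01 over all probes. Cxcl1, a neutrophil attractant (probe at chr5:91321845-91321904 of mm9), read 4.19 to 5.56 with a median of 5.02 on the O4+ PBS arrays and 6.57 to 7.82 with a median of 7.07 on the O4+ IL1B arrays. It read 11.14 to 11.78 (median 11.25) in CD11B+ PBS and 11.23 to 12.21 (median 11.69) in CD11B+ IL1B. Thus all O4+ IL1B arrays lay above all O4+ PBS arrays and well below every CD11B+ array, while the CD11B+ groups overlapped. The O4+ rise was 2.12 (adjusted p = 2.1e-06) and the CD11B+ change 0.37 (adjusted p = 0.354). The interaction was 1.76 ± 0.31 (SE, adjusted p = 0.00151), with 1.80 under the slide block. Over 37 alternative settings it ran from 0.76 to 1.87 and passed in each, so its size depends on the processing.

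Other chemokines followed the same order of responses. The interaction was 1.47 for Ccl3, 1.38 for Cxcl2, 1.28 for Cxcl10, 1.03 for Ccl7, 0.95 for Ccl4 and 0.92 for Ccl2, ligands that draw neutrophils, T cells and monocytes. Under the slide block Cxcl1, Cxcl2, Ccl4 and Ccl7 still passed, whereas Ccl3, Cxcl10 and Ccl2 had adjusted p values of 0.0711, 0.0531 and 0.088. With the block and without CD11B+ PBS array 6, 1 of the 7 passed, namely Cxcl1 (1.51, adjusted p = 0.0214).

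Il1b itself (chr2:129190347-129190406) read 5.39 to 6.82 (median 5.86) in O4+ PBS and 8.46 to 9.41 (median 8.68) in O4+ IL1B. In CD11B+ PBS it read 11.89 to 13.56 (median 12.28) and in CD11B+ IL1B 13.14 to 13.75 (median 13.32). It rose in both populations, by 2.83 and 0.92, and more in O4+ cells (interaction 1.91 ± 0.37, adjusted p = 0.00271), with an adjusted p of 0.339 for the CD11B+ rise under the slide block. The slide block gave 2.14 (adjusted p = 0.0185), and the block without CD11B+ PBS array 6 gave 1.58 (adjusted p = 0.0628). Over 37 alternative settings the interaction of Il1b ran from 1.08 to 2.14. Il1a, the sister cytokine, and Tnfaip3, an inhibitor of NF-kappaB signalling, had interactions of 1.31 and 0.98 that also passed under the block. In the list of 19 cytokine and NF-kappaB genes, 10 rose in O4+ cells and 2 in CD11B+ cells, 3 were more positive in O4+ cells and 3 more negative (Nfkb2 -0.72, Nlrp3 -0.66 and Relb -0.51), none of the latter passing under the slide block.

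Microglial markers moved with these genes. All 15 microglial markers were above background on every O4+ array, and all were higher in CD11B+ cells. Of the 15, 9 rose in O4+ cells and none was called in CD11B+ cells, 7 passed the interaction test and their median interaction was 0.59. Trem2, a microglial receptor, read 11.55 to 12.29 (median 11.69) in O4+ PBS and 12.24 to 13.04 (median 12.53) in O4+ IL1B, and 16.31 to 16.68 across the CD11B+ arrays (interaction 0.83 ± 0.18, adjusted p = 0.00597). The mean level of the list in O4+ cells ran from 11.7 to 12.5 with PBS and from 12.2 to 12.9 with IL1B, so the groups overlapped. Under the slide block 3 of the 15 passed, and without CD11B+ PBS array 6 under that block none did. In bulk samples, more cells of a type and more RNA per cell cannot be told apart, and the part of microglial RNA in the O4+ responses was not tested.

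The promoters of Cxcl1 and Cxcl2 are shown because they hold the NF-kappaB motif searched for (GGGA, any 4 bases, then CC), in capitals, in the 250 bases before the start. Sequences here are from RefSeq on GRCm38.p6, 5′ to 3′ on the gene's strand, where 245 of 330 listed genes had a promoter. Each motif was searched on both strands from 250 bases before to 50 after the start, and the matches shown overlap no other motif searched. Of the chemokines with a promoter, 5 of 11 (45.5%) held this motif, against 22.9% of 27025 genes.
Cxcl1 (chr5:90890995-90891244, plus strand): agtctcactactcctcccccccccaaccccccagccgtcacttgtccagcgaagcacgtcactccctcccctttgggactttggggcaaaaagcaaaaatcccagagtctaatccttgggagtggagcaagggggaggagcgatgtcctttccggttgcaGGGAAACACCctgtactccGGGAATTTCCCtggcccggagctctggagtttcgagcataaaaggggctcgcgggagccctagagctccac
Cxcl2 (chr5:90903649-90903898, plus strand): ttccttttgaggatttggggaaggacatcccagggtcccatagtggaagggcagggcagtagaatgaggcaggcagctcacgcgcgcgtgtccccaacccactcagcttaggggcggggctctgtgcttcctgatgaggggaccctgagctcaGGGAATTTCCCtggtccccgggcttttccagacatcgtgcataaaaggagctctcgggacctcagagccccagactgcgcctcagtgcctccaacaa
Overlapping matches begin 71 and 70 bases before the start of Cxcl1, with a further match at 90, and 97 and 96 bases before the start of Cxcl2.

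Interferon-inducible GTPases, which act on intracellular pathogens, rose in O4+ cells for 9 of 13 members and in CD11B+ cells for 4. The 4 that rose in CD11B+ cells also rose in O4+ cells. The interaction test was passed by 2 of the 13, both more positive in O4+ cells, against 3.96% of all probes. All 9 O4+ calls and none of the 4 CD11B+ calls remained under the slide block, and 3 of the 4 passed with the block and without CD11B+ PBS array 6. Igtp (chr11:58020927-58020986) read 7.36 to 7.68 (median 7.42) in O4+ PBS and 9.02 to 10.73 (median 9.42) in O4+ IL1B, with no overlap. In CD11B+ cells it reached 11.42 with PBS (median 11.02) and read 10.98 to 12.08 with IL1B (median 11.52), with overlap. Its O4+ rise was 2.10 and the interaction 1.54 ± 0.33 (adjusted p = 0.00637), the slide block gave 1.66 (adjusted p = 0.0498), and the block without CD11B+ PBS array 6 gave 1.47 (adjusted p = 0.129). Irgm2 had an interaction of 1.18 that did not pass under the block. None of 21 type I interferon antiviral genes passed the interaction test. Of these 21, 6 rose in O4+ cells and 8 in CD11B+ cells, with median responses of 0.75 and 0.74. The slide block left 3 of the 6 and none of the 8, with a CD11B+ median of 0.38, and 3 of the 8 passed with the block and without CD11B+ PBS array 6.

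Antigen presentation genes of MHC class I rose in both populations for 10 of 18 members in the fit without the slide. Of the 18 genes for class I chains, peptide loading and the immunoproteasome, 14 rose in O4+ cells and 11 in CD11B+ cells, with median responses of 1.21 and 0.88. The slide block left 13 of the 14 O4+ calls and 2 of the 11 CD11B+ calls, and 10 of the 11 passed with the block and without CD11B+ PBS array 6. Of these 18, 4 had a more positive response in O4+ cells, namely B2m, Psmb9, Psmb8 and Tap2, and all 4 passed under the slide block, against 2 (B2m and Psmb8) with the block and without array 6. B2m, the invariant light chain of class I molecules (chr2:121978401-121978460), read 11.66 to 12.62 (median 12.15) in O4+ PBS and 13.37 to 14.21 (median 13.85) in O4+ IL1B. Its CD11B+ levels were 15.83 to 16.52 (median 15.96) and 16.27 to 16.62 (median 16.50), so only the O4+ groups were apart. The interaction of B2m was 1.23 ± 0.21 (adjusted p = 0.00107) and 1.35 with the slide block. Psmb9, a catalytic immunoproteasome subunit, rose by 2.00 in O4+ cells and by 1.03 in CD11B+ cells (interaction 0.97 ± 0.27, adjusted p = 0.0289). In the class II list of 10, Cd74, the invariant chain that guides class II molecules, had the largest positive interaction among named genes above background on all 24 arrays (2.02 ± 0.54, adjusted p = 0.0226; O4+ rise 3.91, CD11B+ rise 1.89). H2-Ob was the other class II member called, with all O4+ PBS arrays below background, so that its size has only a bound, and its adjusted p was 0.056 under the slide block. For Cd74 the call was lost with normexp background correction and with the slide block and without CD11B+ PBS array 6 (2.24, adjusted p = 0.0754).

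The promoters of B2m, Igtp, Gbp2 and Tgtp2 are shown because they hold the interferon-stimulated response element searched for (GAAA, any 2 bases, then GAAA), in capitals. The motif was found for 9 of 9 GTPase genes with a promoter, 10 of 15 (66.7%) type I interferon genes and 4 of 14 (28.6%) class I genes, against 3.99% of all genes.
B2m (chr2:122147437-122147686, plus strand): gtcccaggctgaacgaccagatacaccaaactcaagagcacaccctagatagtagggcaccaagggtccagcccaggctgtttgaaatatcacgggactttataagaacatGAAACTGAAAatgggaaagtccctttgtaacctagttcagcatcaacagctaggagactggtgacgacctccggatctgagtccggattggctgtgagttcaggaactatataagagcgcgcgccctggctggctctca
Igtp (chr11:58199306-58199555, plus strand): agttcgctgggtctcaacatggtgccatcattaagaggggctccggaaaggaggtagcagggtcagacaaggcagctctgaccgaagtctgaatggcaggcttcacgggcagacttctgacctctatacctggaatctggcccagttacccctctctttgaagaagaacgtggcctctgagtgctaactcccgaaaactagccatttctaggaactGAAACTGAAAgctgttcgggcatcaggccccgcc
Gbp2 (chr3:142620413-142620662, plus strand): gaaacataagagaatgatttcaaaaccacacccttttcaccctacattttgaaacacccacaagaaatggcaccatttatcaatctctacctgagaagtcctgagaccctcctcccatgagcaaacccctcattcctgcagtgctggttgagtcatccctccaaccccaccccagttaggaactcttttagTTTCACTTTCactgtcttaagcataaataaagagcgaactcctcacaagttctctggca
Tgtp2 (chr11:49064213-49064462, minus strand): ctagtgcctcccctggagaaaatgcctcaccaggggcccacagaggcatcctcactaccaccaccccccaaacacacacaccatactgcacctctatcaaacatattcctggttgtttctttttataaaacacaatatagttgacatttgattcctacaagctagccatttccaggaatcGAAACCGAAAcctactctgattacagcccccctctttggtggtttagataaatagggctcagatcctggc
The match began 139, 34, 59 and 70 bases before the start, respectively. The GAS motif (TTCNNNGAA) was held by 6 of 9 GTPase genes (66.7%) and 9.55% of all genes.

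Cell cycle genes rose in O4+ cells. Of 29 genes of DNA replication and mitosis, 18 rose in O4+ cells and none was called in CD11B+ cells. Of the 29, 20 had a more positive response in O4+ cells and none a more negative one, against 3.96% and 3.70% of all probes. The median interaction of the 29 was 0.71 (O4+ 0.78, CD11B+ 0.08). All O4+ IL1B arrays lay above all O4+ PBS arrays for 20 of the 29, against 2.91% of all probes, and this held for none of the 29 in CD11B+ cells, against 2.07%. Mki67, the proliferation antigen Ki-67 (chr7:142881591-142881650), read 11.15 to 11.65 (median 11.42) in O4+ PBS and 12.29 to 12.60 (median 12.47) in O4+ IL1B. It read 14.03 to 14.32 (median 14.20) in CD11B+ PBS and 14.12 to 14.37 (median 14.26) in CD11B+ IL1B. The O4+ groups were fully apart and the CD11B+ groups overlapped, and the interaction was 0.97 ± 0.11 (adjusted p = 6.72e-05).

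The mitotic cyclin Ccnb1 rose by 1.16 in O4+ cells (interaction 1.04 ± 0.17, adjusted p = 0.000817), and Cdc20, an activator of the anaphase-promoting complex, by 0.88 (interaction 0.82 ± 0.13, adjusted p = 0.000591). Ccna2, Bub1b, Rrm2, Plk1, Top2a and Birc5 had interactions of 0.97, 0.88, 0.87, 0.82, 0.71 and 0.76. Members that did not pass included E2f1 (-0.01), Ccne1 (0.20), Pcna (0.27), Mcm7 (0.33) and Cdk1 (1.20, with a CD11B+ change of -0.51). Of the 29, 16 passed under the slide block, 19 without CD11B+ PBS array 6, and 6 with both changes together. The level of these genes was lower in O4+ cells than in CD11B+ cells in each group: the list mean ran from 8.70 to 9.03 in O4+ PBS, 9.34 to 9.68 in O4+ IL1B and 10.8 to 11.1 across the CD11B+ arrays.

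The promoters of Mki67 and Cdc20 are shown because they hold the cell cycle homology region motif (TTTGAA), in capitals, which was found for 11 of 24 (45.8%) listed cell cycle genes and 20.2% of all genes.
Mki67 (chr7:135716380-135716629, minus strand): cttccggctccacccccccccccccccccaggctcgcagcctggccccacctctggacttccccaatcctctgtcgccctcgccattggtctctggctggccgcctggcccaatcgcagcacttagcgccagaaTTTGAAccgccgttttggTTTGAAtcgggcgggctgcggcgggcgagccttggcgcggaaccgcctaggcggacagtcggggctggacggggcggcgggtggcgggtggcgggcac
Cdc20 (chr4:118437344-118437593, minus strand): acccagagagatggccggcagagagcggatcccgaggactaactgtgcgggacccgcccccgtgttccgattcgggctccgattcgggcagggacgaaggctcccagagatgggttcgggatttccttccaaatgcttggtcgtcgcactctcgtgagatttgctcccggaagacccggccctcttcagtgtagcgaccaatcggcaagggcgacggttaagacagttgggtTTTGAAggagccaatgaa
The matches began 116 and 98 bases before the start of Mki67 and 18 bases before that of Cdc20. All 8 promoters printed here were picked among the described genes because they hold their motif before the start, and genes without a match to the motif of their group in the window searched, such as Ccnb1, Ccl3, Psmb9 and H2-K1, were not printed.

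**Figure D2:**
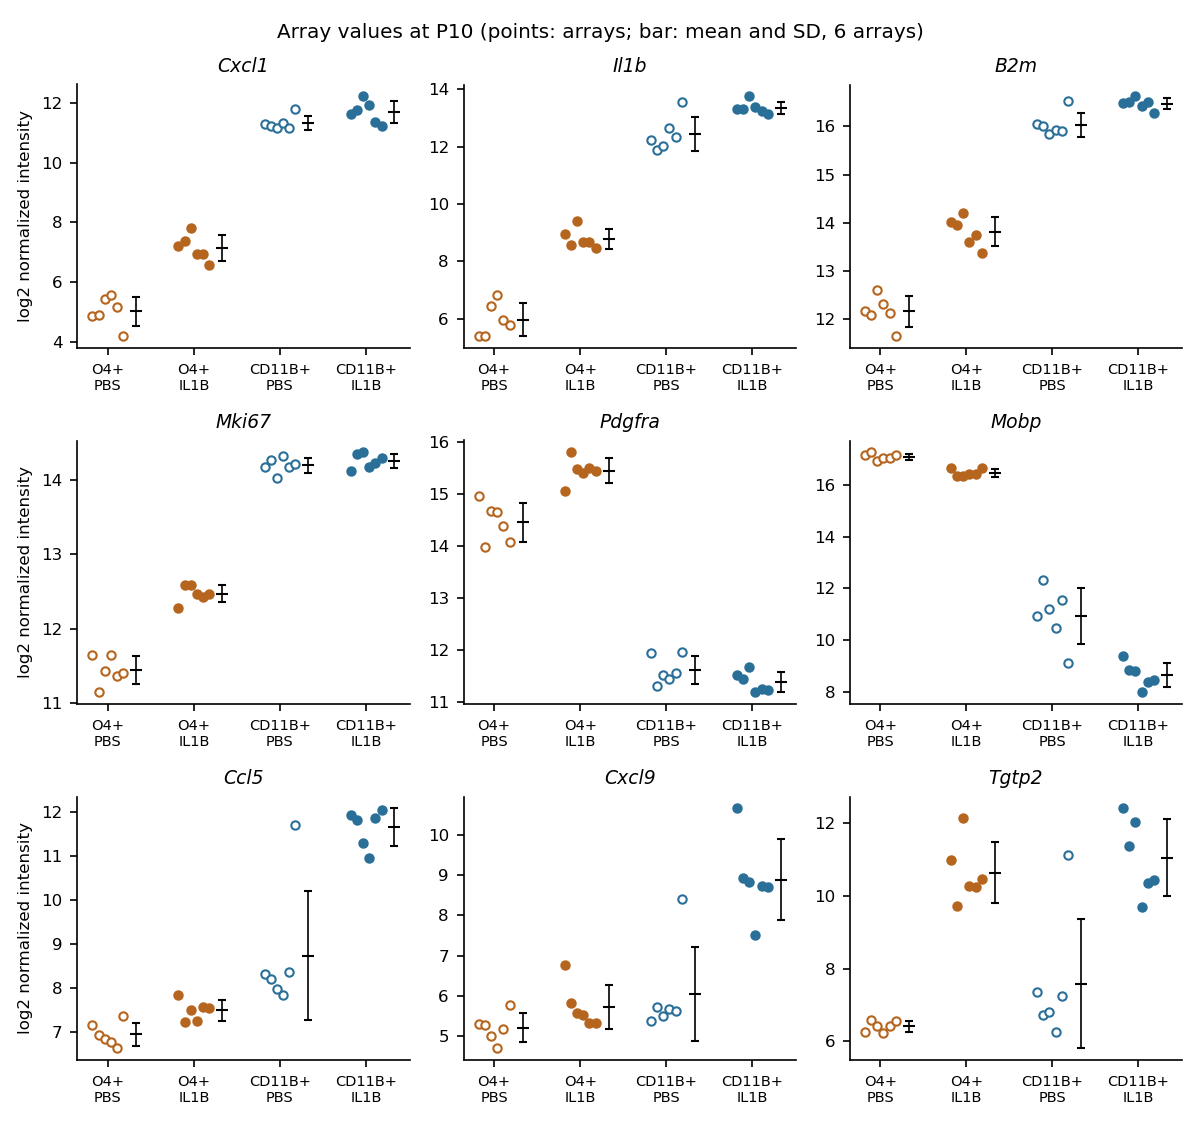
Log2 normalized intensity (y axis) of 9 genes on each of the 24 arrays at P10, 6 arrays per group (x axis), open points for PBS, filled points for IL1B, and a bar for the mean and SD. For Cxcl1, Il1b, B2m, Mki67 and Pdgfra the O4+ IL1B points lie above all O4+ PBS points, and for Ccl5 and Tgtp2 1 CD11B+ PBS point, array 6, lies among the CD11B+ IL1B points.

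Immediate early genes and progenitor genes also had more positive responses in O4+ cells. Of 12 immediate early genes, which are induced within minutes by many stimuli and by cell dissociation, 6 passed and none was negative, against 3.96% and 3.70% of all probes. The median interaction of the 12 was 0.62, and 6 passed under the slide block. Atf3, a stress-induced transcription factor, rose by 1.46 in O4+ cells (interaction 1.07 ± 0.18, adjusted p = 0.000871), Egr1 by 1.06 (1.03 ± 0.19) and Fos by 1.00 (0.96 ± 0.15). Of 10 oligodendrocyte progenitor genes, 4 passed as more positive, against 3.96% of all probes, and all 10 had a positive interaction. Falls in CD11B+ cells took part in this: 4 of the 10 rose in O4+ cells and 4 fell in CD11B+ cells, and all these calls remained under the slide block. The change was above 0 for 6 of the 10 in O4+ cells and for 1 in CD11B+ cells. Pdgfra, the growth factor receptor of progenitors (chr5:75593888-75593947), read 13.98 to 14.97 (median 14.52) in O4+ PBS and 15.05 to 15.80 (median 15.46) in O4+ IL1B, without overlap. In CD11B+ cells it read 11.31 to 11.96 (median 11.54) and 11.20 to 11.69 (median 11.36). The interaction of Pdgfra was 1.22 ± 0.22 (adjusted p = 0.00192), and Cspg4, Cspg5 and Gpr17 had interactions of 0.81, 0.80 and 0.56. For Gpr17, a receptor of cells about to differentiate, the O4+ change was -0.01 and the CD11B+ change -0.57. Under the slide block 3 progenitor genes passed, and under the block without CD11B+ PBS array 6 none did.

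Genes linked to microglia of white matter and disease rose in O4+ cells for 13 of 21 members and in CD11B+ cells for 7, of which 13 and 3 remained under the slide block. Of the 21, 3 had a more positive interaction (Clec7a 1.95, Trem2 0.83 and Tyrobp 0.71) and 2 a more negative one (Fabp5 -1.04 and Csf1 -0.89). Under the slide block 2 members passed as more positive and none as more negative, against 3 and 3 without CD11B+ PBS array 6. Clec7a, a receptor for fungal glucans, rose by 3.50 in O4+ cells and by 1.55 in CD11B+ cells. S100a9, a calcium-binding protein of neutrophils, was above background on 5 of 6 O4+ PBS arrays and read at most 6.49 there and 7.60 to 9.74 in O4+ IL1B. Its interaction of 2.93 ± 0.84 (adjusted p = 0.0348) had an adjusted p of 0.0746 under the slide block, and it is a marker of another cell type. Of 7 neutrophil and monocyte markers, 5 rose in O4+ cells and 2 in CD11B+ cells, against 2.72% and 1.69% of all probes. Under the slide block 4 of the 5 and neither of the 2 remained. Of the 7, 1 was above background on all 6 O4+ PBS arrays and 3 on all 6 O4+ IL1B arrays. The size of most of these O4+ rises is therefore only a bound. The mean level of the 7 ran from 2.24 to 3.80 in O4+ PBS, 3.84 to 5.42 in O4+ IL1B, 9.99 to 12.4 in CD11B+ PBS and 11.1 to 11.9 in CD11B+ IL1B. Ccr2 and Mmp8 were above background on no O4+ array.

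**Figure D3:**
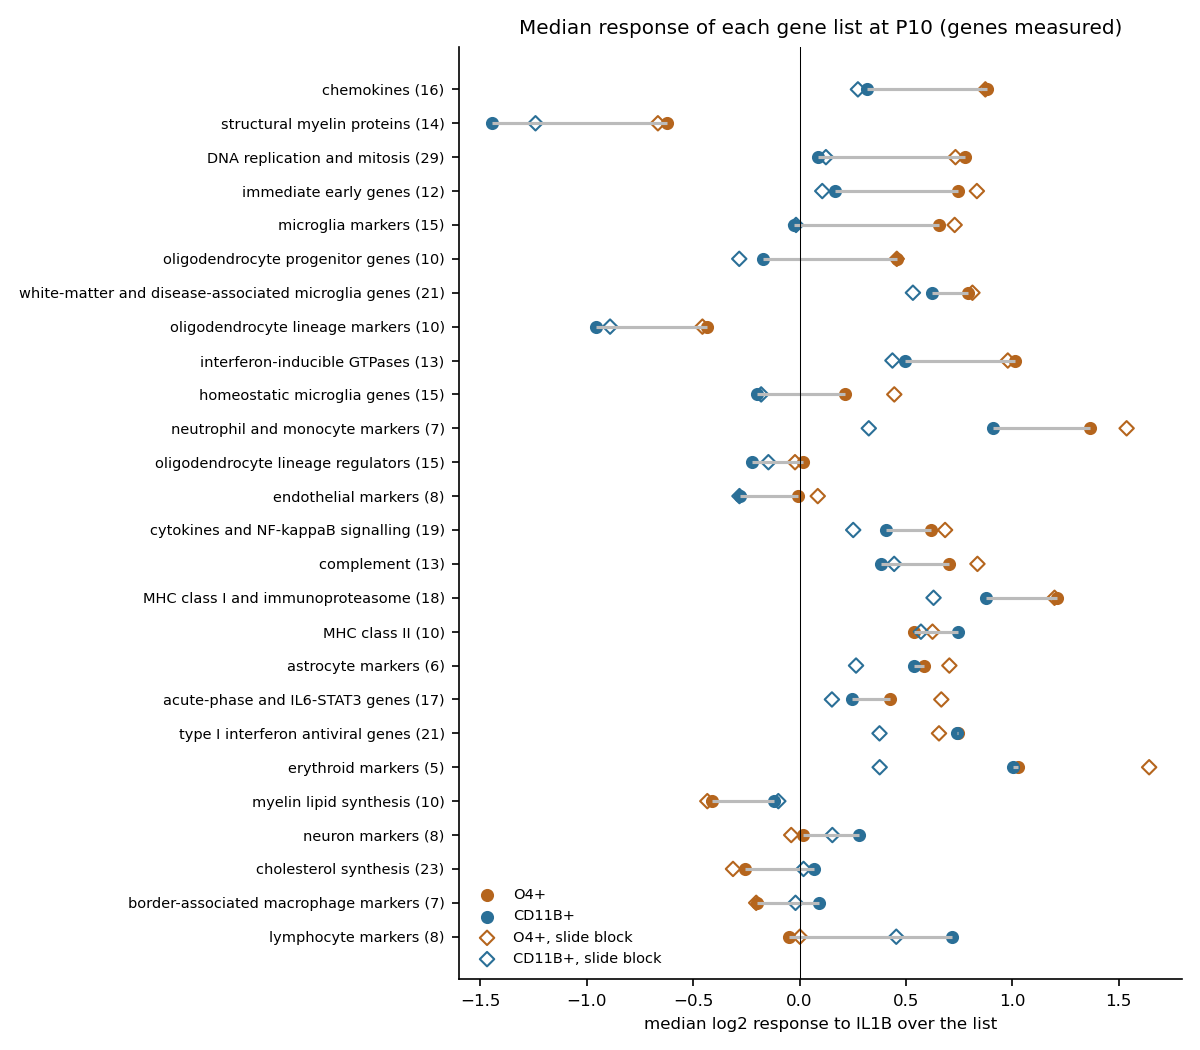
Median log2 response to IL1B at P10 (x axis) over the measured genes of each list (y axis, number of genes in brackets), in O4+ cells (brown) and CD11B+ cells (blue), with circles for the fit without a block and diamonds for the slide as a block. DNA replication and mitosis lies at 0.78 in O4+ cells and 0.08 in CD11B+ cells, and structural myelin proteins lie at -0.62 and -1.44.

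A second set of genes rose in CD11B+ cells and did not pass in O4+ cells. Ccl5, a T cell attractant (chr11:83339296-83339355), read 7.84 to 11.72 (median 8.26) in CD11B+ PBS and 10.95 to 12.05 (median 11.84) in CD11B+ IL1B. In O4+ cells it read 6.63 to 7.36 (median 6.88) and 7.24 to 7.85 (median 7.52). The CD11B+ groups overlapped only through PBS array 6. The O4+ change of Ccl5 was 0.54 (adjusted p = 0.5225). Its SDs were 0.27 and 0.23 in O4+ PBS and O4+ IL1B against 1.47 in CD11B+ PBS, in a fit that shares 1 spread. The CD11B+ rise was 2.92 and the interaction -2.38 ± 0.62 (adjusted p = 0.021). With the slide as a block the interaction was -1.31 (adjusted p = 0.366), without that array it was -2.97, and with both changes -2.79 (adjusted p = 0.00122). Cxcl9, a chemokine induced by interferon gamma, behaved alike in the first 2 fits (-2.32 ± 0.66, adjusted p = 0.0329; -1.25 with the block, adjusted p = 0.467), and its adjusted p with both changes was 0.092.

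Other genes more positive in CD11B+ cells were Il12rb1, an interleukin-12 receptor chain (-2.30 ± 0.45), Itgb7, an integrin of lymphocytes and myeloid cells (-2.14 ± 0.37), Slpi, a protease inhibitor (-2.03 ± 0.46), Ass1, an enzyme of arginine synthesis (-1.99 ± 0.43), and Gbp11 (-1.86 ± 0.56). Itgb7 still passed under the slide block (-1.56, adjusted p = 0.0442), and the other 4 did not, with values of -1.72, -1.69, -1.46 and -1.10. With the block and without CD11B+ PBS array 6, Slpi (adjusted p = 0.0261) and Ass1 (0.0235) passed as well. The O4+ changes of Il12rb1, Itgb7, Slpi and Ass1 were -0.93, -0.57, -0.56 and -0.43, none of them called. For Il12rb1 and Itgb7 all O4+ IL1B arrays lay below all O4+ PBS arrays. Their O4+ PBS means were 9.55 and 11.99, against 5.45 and 8.26 in CD11B+ PBS. Under the slide block the CD11B+ rises of Il12rb1 and Itgb7 had adjusted p values of 0.239 and 0.0667. The complement component C3 rose by 1.30 in CD11B+ cells with an O4+ change of -0.02 (interaction -1.32 ± 0.31, adjusted p = 0.0116; -0.79 with the block, adjusted p = 0.292). Gas7 (-1.81 ± 0.27) and the predicted gene Gm10532 (-2.17 ± 0.48) were negative through falls in O4+ cells, of 1.26 and 2.30 on the log2 scale, and under the slide block Gas7 still passed and Gm10532 did not (-1.86, adjusted p = 0.115).

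Lymphocyte markers moved with the second set. Ifng, the gene for interferon gamma, was above background on no O4+ array, on 1 of 6 CD11B+ PBS arrays, which was array 6 at 7.27, and on all 6 CD11B+ IL1B arrays at 6.52 to 7.53. Cd3g, a chain of the T cell receptor complex, was likewise above background on 1 and 6 CD11B+ arrays and on no O4+ array. Both passed in the CD11B+ response and in the interaction, but with every O4+ array and 5 of 6 CD11B+ PBS arrays below background these differences have no measured size. Under the slide block the adjusted p of the CD11B+ response was 0.061 for Ifng and 0.0582 for Cd3g, and that of the interaction 0.337 and 0.378. Both passed again in the interaction with the block and without CD11B+ PBS array 6 (adjusted p = 0.00316 and 0.00161). Of the 8 lymphocyte markers these 2 passed the interaction test, and Cd8a was above background on no array of either population. The list mean ran from 4.35 to 6.04 in CD11B+ PBS and from 5.37 to 6.11 in CD11B+ IL1B, with array 6 the highest PBS array, and from 4.16 to 4.55 across the O4+ arrays. The part of lymphocyte RNA in the CD11B+ responses was not tested.

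**Figure D4:**
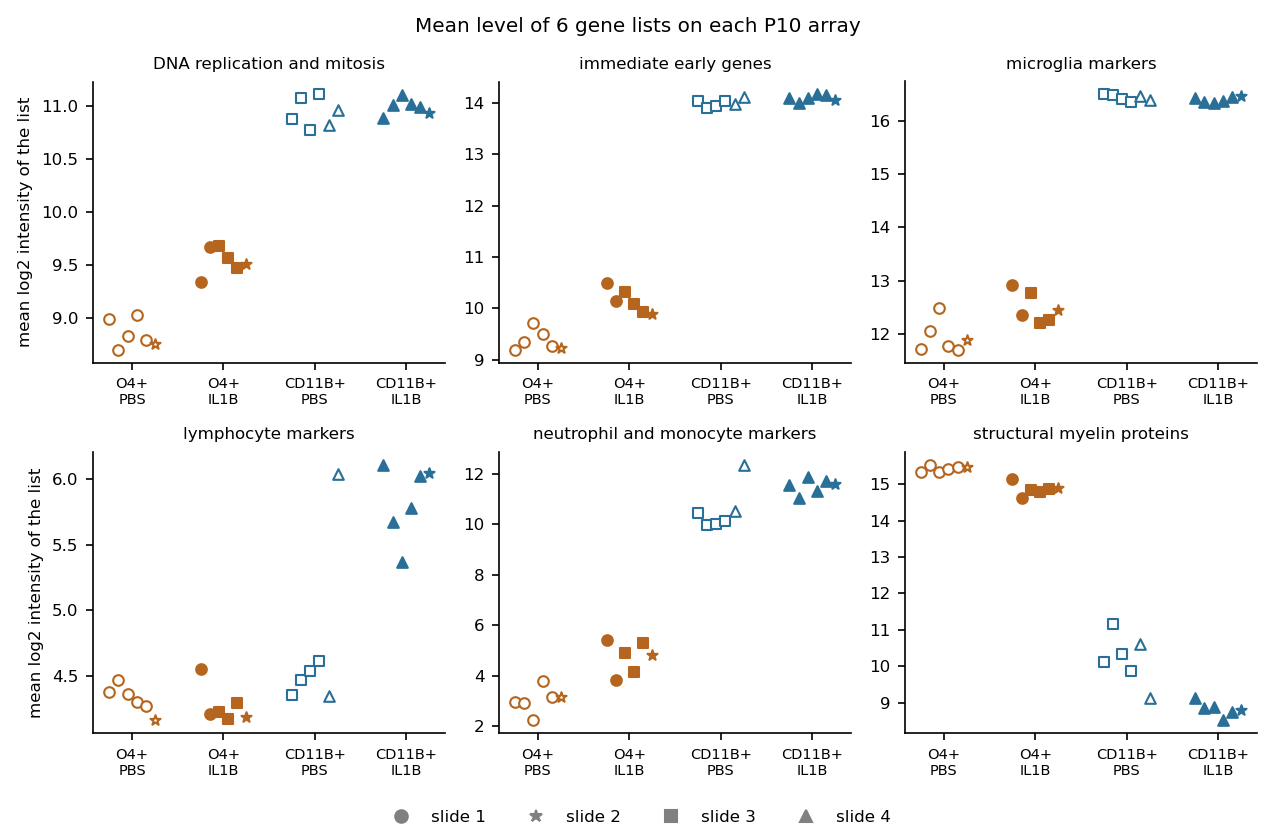
Mean log2 intensity of 6 gene lists on each P10 array, with 6 arrays per group, open points for PBS, filled points for IL1B and the marker shape giving the slide. Lymphocyte markers run from 4.35 to 6.04 in CD11B+ PBS, where array 6 on slide 4 is the highest.

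Some probes were above background on all 12 arrays of only 1 population. Among probes bright in CD11B+ cells, the largest negative interactions lay with CD11B+ rises of Acod1 (2.36), which makes itaconate in macrophages, Slc28a2 (1.88), Mcpt8 (1.84), a basophil protease, Hcar2 (1.64) and F10 (1.46), and the positive interactions with CD11B+ changes in Ptger3 (-2.32), a prostaglandin receptor, and Ccdc162 (-0.89), with Lsmem1 at -0.37. For all 8 the O4+ levels were below background in both groups, so no O4+ change could be measured. Conversely Nipal4, Slc51a, Tex52, Smok4a and Acp7 were bright only in O4+ cells, with O4+ changes of -0.93, -1.03, -0.88, -0.85 and -0.54, of which Nipal4, Slc51a and Smok4a were called. Enpp3, Atp6v1c2, Sybu, Gm10778 and Pcdha11 were also bright only in O4+ cells, and none passed in the O4+ response. For these 10 the CD11B+ side was below background. A second probe of Hcar2 was also called in the interaction, but in the other direction (1.47). Second probes of F10 (0.18) and Smok4a (0.73) also had interactions of the other sign, which were not called.

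**Figure D5:**
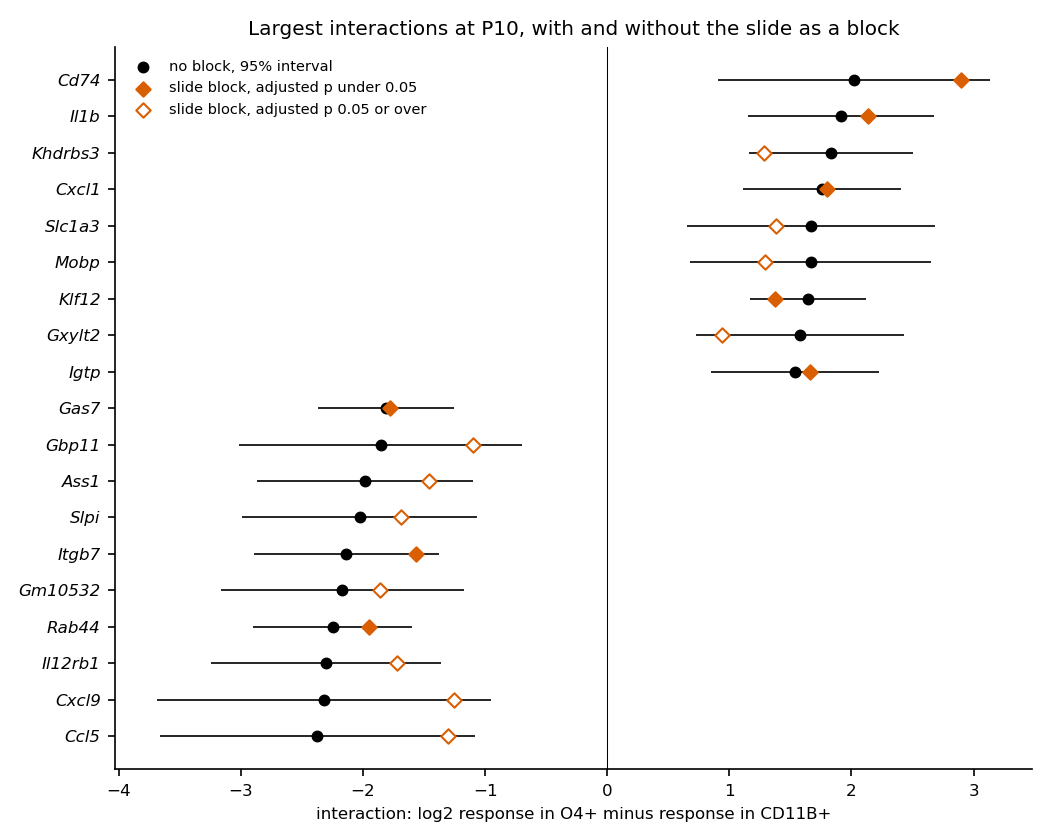
Interaction (log2, x axis) of the 19 genes reported here with the largest interactions either way at P10, with 95% intervals (black) and the value with the slide as a block (diamonds, filled where the adjusted p was under 0.05). All diamonds lie on the same side of 0 as the black points, and 11 of the 19 are open, those of Ccl5, Cxcl9 and Gbp11 among them.

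Myelin genes fell in CD11B+ cells, and the difference from O4+ cells passed the test for few of them. Of 14 structural myelin genes, each at its brightest probe, 10 fell in CD11B+ cells and 1, Mog, in O4+ cells. Other probes of Tspan2 and Ermn were also called as falls in O4+ cells, so the O4+ count depends on the probe. The median change of the 14 was -1.44 in CD11B+ cells and -0.62 in O4+ cells, and 3 passed the interaction test, among them Mobp and Cldn11. Of the 10 falls in CD11B+ cells 5 remained under the slide block, and all 10 passed with the block and without CD11B+ PBS array 6. All IL1B arrays lay below all PBS arrays for 6 of the 14 in O4+ cells, against 3.33% of all probes, and for 4 in CD11B+ cells, against 1.82%. Mobp, a basic protein of compact myelin (chr9:120085150-120085209), read 16.90 to 17.25 (median 17.08) in O4+ PBS and 16.32 to 16.66 (median 16.41) in O4+ IL1B. In CD11B+ PBS it read 9.12 to 12.34 (median 11.07) and in CD11B+ IL1B 8.00 to 9.39 (median 8.65). The O4+ groups were apart and the CD11B+ groups overlapped by a narrow margin. The O4+ change was -0.62 (adjusted p = 0.286) and the CD11B+ fall was 2.28 on the log2 scale. The fit shares 1 spread over the 4 groups, whose SDs for Mobp were 0.13, 0.15, 1.09 and 0.48 in the order above. The adjusted p of the O4+ change thus rests on the CD11B+ spread as well, and does not show that the change was absent. The interaction was 1.67 ± 0.48 (adjusted p = 0.0339) at this probe, with values down to 0.75 at other probes of the gene. With the slide block the adjusted p of Mobp was 0.299 and none of the 14 passed, and with the block and without CD11B+ PBS array 6 4 did, Mobp among them (2.34, adjusted p = 0.0185).

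Oligodendrocyte markers were above background on every CD11B+ array for all 10 members, at levels far below those in O4+ cells, and 6 of the 10 fell in CD11B+ cells. The mean of the structural myelin genes was 9.12 to 11.2 in CD11B+ PBS, 8.51 to 9.12 in CD11B+ IL1B, 15.3 to 15.5 in O4+ PBS and 14.6 to 15.1 in O4+ IL1B, and the lowest CD11B+ PBS value was that of array 6. Whether oligodendrocyte RNA carried into the CD11B+ fraction sets these values was not tested. Fa2h, a hydroxylase of myelin lipids, was of the same kind (interaction 1.00 ± 0.30, adjusted p = 0.0474, with a CD11B+ fall of 1.46 on the log2 scale).

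A minority of lipid synthesis genes had a more negative response in O4+ cells. Of 23 cholesterol synthesis genes, 6 had a more negative response in O4+ cells and none a more positive one, against 3.70% and 3.96% of all probes. Under the slide block 6 were also called. The median interaction was -0.29, with medians of -0.26 in O4+ cells and 0.07 in CD11B+ cells, and no member was called in either response. Lss, lanosterol synthase (chr10:76015992-76016051), read 10.79 to 11.47 (median 11.05) in O4+ PBS and from 10.41 up (median 10.55) in O4+ IL1B, with every IL1B array below every PBS array. It read 7.67 to 7.99 (median 7.87) and 7.85 to 8.24 (median 7.96) in CD11B+ cells, which overlapped. The interaction of Lss was -0.70 ± 0.14 (adjusted p = 0.00322), that of Mvd, a decarboxylase of the mevalonate pathway, -0.84 ± 0.21 (adjusted p = 0.0174), and Hsd17b7, Sc5d, Pmvk and Fdps had values of -0.63, -0.60, -0.50 and -0.39. With the block and without CD11B+ PBS array 6, 2 of the 23 passed.

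Among 10 genes of myelin lipid synthesis, 4 were more negative in O4+ cells (Aspa, Elovl1, Sptlc2 and Degs1) and Fa2h more positive, against 3.70% and 3.96% of all probes. Aspa, which frees acetate for myelin lipids (chr11:73119051-73119110), read 9.53 to 10.18 (median 10.06) in O4+ PBS and 8.15 to 9.48 (median 8.88) in O4+ IL1B, with no overlap. Its CD11B+ levels were 6.32 to 7.22 (median 6.74) and 6.88 to 7.36 (median 7.04). It fell by 1.14 on the log2 scale in O4+ cells and read 0.30 higher in CD11B+ cells (interaction -1.44 ± 0.24, adjusted p = 0.00104), and all 4 passed under the slide block. With the block and without CD11B+ PBS array 6 the value for Aspa was -1.17 (adjusted p = 0.0883), and Elovl1 alone of the 4 passed (-0.54, adjusted p = 0.0272).

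Interaction calls in the remaining lists stand against 7.66% of all probes, 3.96% more positive and 3.70% more negative. Of 17 acute-phase and IL6-STAT3 genes, 2 rose in O4+ cells and 5 in CD11B+ cells (2 and 1 under the slide block). Their median interaction was -0.05, and 11 of the 17 were negative, down to -2.46, though none of these passed. The 3 that passed as more positive in O4+ cells were Socs3 (0.78) and Il6st (0.39), parts of IL6 signalling, and the transcription factor Cebpd (0.61). Without CD11B+ PBS array 6, 4 further members passed as more negative. Of 13 complement genes, 8 rose in O4+ cells and 5 in CD11B+ cells (8 and none under the slide block), and beside C3 only C1qc (0.60) passed the interaction test. Of 15 homeostatic microglial genes 2 passed the interaction test, and all 15 had a positive interaction, from 0.07 to 0.79 with a median of 0.46. Among 15 lineage regulators 3 were more positive (Id2, Olig2 and Olig1) and Tcf7l2 was more negative (-0.36). Stmn2 (-0.67) was the 1 neuronal marker of 8 to pass, Slc1a3 the 1 astrocyte marker of 6, and no endothelial, border-associated macrophage or erythroid marker did. In marker lists this short such counts lie near the share of all probes.

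A further 3 genes were among the 10 largest positive interactions. Khdrbs3, an RNA-binding protein (1.83 ± 0.32), was positive through a CD11B+ fall of 1.55 on the log2 scale, Gxylt2, a xylosyltransferase (1.58 ± 0.41), through an O4+ rise of 1.32, and Slc1a3, a glutamate transporter (1.67 ± 0.49, adjusted p = 0.039), passed in neither response. None of the 3 passed under the slide block. Other probes of Gxylt2 had interactions as low as -1.42.

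Shared responses covered 253 probes, which are 10.5% of the O4+ calls and 15.0% of the CD11B+ calls. Of these, 191 rose in both (0.343% of all probes) and 62 fell in both (0.111%), and 11 were also called in the interaction. The slide block left 44 shared probes, and leaving out CD11B+ PBS array 6 gave 437, which held all 253. The block without that array gave 201. The largest shared rises were in interferon-responsive and antigen-presenting genes. Tgtp2, an interferon-inducible GTPase (chr11:48871837-48871896), read 6.24 to 6.58 (median 6.42) in O4+ PBS, 9.72 to 12.14 (median 10.37) in O4+ IL1B, 6.26 to 11.11 (median 7.03) in CD11B+ PBS and 9.69 to 12.40 (median 10.91) in CD11B+ IL1B. The rises were 4.23 and 3.46, and the CD11B+ groups overlapped through PBS array 6, which read 11.11. The interaction of Tgtp2 was 0.76 with a 95% interval from -1.06 to 2.59, so a sizeable difference either way was within the error.

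H2-Q8 rose by 2.51 in O4+ cells and 2.41 in CD11B+ cells (interaction 0.10, interval -1.05 to 1.25), Gbp2 by 1.95 and 1.74 (0.20, interval -0.75 to 1.16) and C4b, a complement component, by 1.44 and 2.05 (-0.61, interval -1.62 to 0.40). Without CD11B+ PBS array 6 the interaction of C4b was -1.04 (adjusted p = 0.0138). Gbp4, H2-Eb1 and Gm8909 rose by 2.21, 2.05 and 2.20 in O4+ cells and by 2.46, 2.12 and 1.70 in CD11B+ cells. H2-Q8 and Gm8909 belong to a family of near-identical class I genes, whose probes can cross-hybridise. Hbb-b2, a haemoglobin chain, rose by 1.43 in both, and Camp, a neutrophil peptide, by 1.36 and 1.37, each being a marker of blood cells. Nlrc5, the transactivator of class I genes, was called as a rise in both populations, but was above background on 1 of 6 O4+ PBS arrays, so its O4+ rise has no measured size. All 10 largest shared rises, Cd74 and those named here, passed in O4+ cells under the slide block and none in CD11B+ cells (adjusted p = 0.0536 to 0.588). With the block and without CD11B+ PBS array 6, the CD11B+ rise passed for 8 of the 10, without Gm8909 and Hbb-b2.

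The largest shared falls were in genes of maturing oligodendrocytes and in genes at higher level in O4+ cells. Mog, a surface myelin protein (chr17:37148277-37148336), read 12.68 to 13.50 (median 13.08) in O4+ PBS and 11.60 to 12.47 (median 12.19) in O4+ IL1B. It read 6.58 to 8.70 (median 7.74) in CD11B+ PBS and 6.33 to 7.24 (median 6.62) in CD11B+ IL1B. The O4+ groups were apart and the CD11B+ groups overlapped, with falls of 0.92 and 0.99 on the log2 scale and an interaction of 0.07 (interval -0.71 to 0.84). Tspan2 and Ermn fell by 0.96 and 1.06 in O4+ cells and by 1.54 and 0.85 in CD11B+ cells at the probes named here, and other probes of both genes had higher interaction values (1.03 and 0.59) that did not pass. Chst8, Fbln2, Rnf122, Col11a2, Onecut2, Etnk2 and the olfactory receptor Olfr1466 completed the 10 largest, with CD11B+ falls of 0.82 to 1.14 on the log2 scale. The CD11B+ fall passed under the slide block for 4 of the 10, namely Tspan2, Col11a2, Onecut2 and Etnk2, and with the block and without CD11B+ PBS array 6 for 9, without Olfr1466.

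Opposite responses were called at 22 probes, 11 in each direction, all of which also passed the interaction test, and 5 were left under the slide block. Rab44, a large Rab GTPase (chr17:29285831-29285890), read 9.94 to 10.42 (median 10.18) in O4+ PBS and 8.29 to 9.08 (median 8.92) in O4+ IL1B, without overlap. It read 7.11 to 9.04 (median 7.63) in CD11B+ PBS and 8.26 to 9.05 (median 8.71) in CD11B+ IL1B, where PBS array 6 reached the IL1B range. It fell by 1.34 on the log2 scale in O4+ cells and rose by 0.91 in CD11B+ cells (interaction -2.25 ± 0.31, adjusted p = 0.000265; -1.95 with the slide block, adjusted p = 0.011). Galnt6, which starts O-linked sugar chains, read 5.71 to 6.80 in O4+ PBS and 5.10 to 5.59 in O4+ IL1B, and 4.24 to 4.47 in CD11B+ PBS and 4.99 to 5.61 in CD11B+ IL1B. PBS and IL1B arrays of Galnt6 were apart within each population, and the interaction was -1.57 ± 0.20 (adjusted p = 0.00018).

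Itih3, Ttyh2, Rab7b, Wipf3, Inpp5j and Lrmda also fell in O4+ cells and rose in CD11B+ cells, with interactions from -1.69 to -1.30. Klf12, a transcriptional repressor, and Sall3, a zinc finger factor, did the reverse, with rises of 0.67 and 0.71 in O4+ cells and changes of -0.98 and -0.53 in CD11B+ cells. Under the slide block the interaction of Itih3 (adjusted p = 0.185) and of Sall3 (adjusted p = 0.0505) no longer passed, and those of the other 8 did. Of the 10 named genes with opposite responses, Galnt6 alone passed in the CD11B+ response under the slide block, against 5 with the block and without CD11B+ PBS array 6.

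The age at which the populations differed was examined with all 48 arrays, in which P5 arrays came from the acute phase, within hours of an injection. The labels and the study's methods give different intervals. The interaction itself differed between P10 and P5 at 3275 probes (5.88%) by limma's three-way contrast, 1208 more positive and 2067 more negative at P10. In that fit 5133 probes passed at P10 and 5980 at P5, and of the 1482 that passed at both ages 1239 had the same sign. The P10 values in this paragraph come from that fit. Cholesterol synthesis had 13 of 23 members in the difference, all more negative at P10. Lss went from 0.56 at P5 to -0.70 at P10 (difference -1.25, adjusted p = 4.4e-05). Csf1, the growth factor of microglia, went from 1.45 to -0.88 (difference -2.32, adjusted p = 9.7e-10), Wipf3 from 1.95 to -1.63, Rab7b from 0.75 to -1.64 and Gas7 from 0.35 to -1.78 (adjusted p = 0.00046). Ccnb1 went from 0.29 to 1.03 (difference 0.74, adjusted p = 0.03).

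For other named genes the difference between the ages did not pass, which does not show that the ages were alike. Cxcl1 had 1.84 at P5 and 1.73 at P10, Il1b 1.89 at both, Igtp 1.61 and 1.52, B2m 1.11 and 1.20, and C3 -1.21 and -1.31, and none of these 5 passed. Among microglial markers the median interaction was 1.39 at P5, and 7 of 15 were called in the difference, among them Trem2 (1.60 at P5, 0.82 at P10, adjusted p = 0.043).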

How the data were processed

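The authors deposited 1 scanner table per array, made with Agilent Feature Extraction 10.7.3.1, in which the processed signal is a background-corrected intensity per spot, and a matrix of linear ratio values, each the processed signal divided by a constant per array (the methods also name quantile normalization). From the deposited intensity, control spots and spots marked non-uniform were left out, log2 values were quantile-normalized over the 24 P10 arrays (48 for the comparison with P5), and spots of a probe were averaged, giving 55681 probes. Of these, 31381 were named through RefSeq accessions or the file's symbols, and 24300 carry no name here. Probe positions are those of the files (mm9). Depth has no meaning for arrays, and their number limits the precision.

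Groups came from the titles. A model of 4 group means was fitted with limma 3.58.1 (R 4.3.3), with Benjamini-Hochberg adjustment, and the adjusted p values throughout are limma's. The model uses 1 spread per probe over the 4 groups, so the p value of a population also depends on the spread in the other. With the 12 arrays of each population fitted alone, 2350 probes were called in O4+ cells and 1157 in CD11B+ cells. The interaction was called at an adjusted p under 0.05, and a response also needed a ratio of group medians over 1.5. The study's methods state 6 independent biological replicates per condition for its microarray data. Nothing in the labels says which brains each array holds, so p values measure only the spread between these samples. Named genes are the 10 largest interactions each way, shared responses each way and opposite responses among probes with a symbol above background on all 24 arrays, 1 probe per gene, 5 each way among probes above background on all arrays of 1 population and none of the other, and members of the lists. The members and lists were chosen with earlier results of these data known. Each list member is given at its probe with the highest mean signal over the 24 arrays. Some lists share genes, as with Trem2, so their counts are not independent.

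The fit was tested on simulated data with known changes, the outcome of which is not given here. Alternatives were other scalings and background correction, slide, replicate number and scan day as terms, array weights, the methods' t-test, other thresholds and each array left out. Motifs were searched and figures drawn with Python 3.11.15. Some named genes are not reported here.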

Additional observations from a re-analysis of the deposited data

Results flagged for a closer look

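For 292 group values of named genes and list means, the gap of the highest or lowest of 6 arrays to its neighbour was divided by the range of the group and compared with Dixon's 95% critical value for 6 samples. It was exceeded 44 times, and in 25 of the 44 the array was CD11B+ PBS array 6. Chance gives about 1 in 20 for independent values. These values are not independent, since the genes were picked on the same arrays and share them, so the count was not tested against chance.

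In CD11B+ PBS, array 6 was the highest for Gbp2 (0.896), Cxcl9 (0.892), Gbp4 (0.867), Ccl5 (0.865), C4b (0.86), Ass1 (0.787), Inpp5j (0.782), Tgtp2 (0.778), Camp (0.764), Itgb7 (0.755), Gbp11 (0.736), Cd74 (0.727), Cxcl1 (0.687), H2-Q8 (0.683), Slpi (0.667) and Rab44 (0.666), and the lowest for Khdrbs3 (0.816) and Klf12 (0.705). It was also the highest for the mean level of interferon-inducible GTPases (0.867), lymphocyte markers (0.842), acute-phase and IL6-STAT3 genes (0.827), MHC class I genes (0.823), neutrophil and monocyte markers (0.778), complement (0.714) and astrocyte markers (0.684). The gap was 3.77 on the log2 scale for Tgtp2 and 3.35 for Ccl5. The cause was not tested.

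In CD11B+ IL1B, array 4 was the lowest for Col11a2 (0.733), Gm8909 (0.651) and the mean of MHC class II genes (0.873) and the highest for Slc1a3 (0.801) and Sall3 (0.754), array 6 the lowest for Gxylt2 (0.826) and array 2 the lowest for Onecut2 (0.722). In O4+ IL1B, array 1 was the lowest for Klf12 (0.783) and the highest for Cxcl9 (0.654), Gm10532 (0.67) and lymphocyte markers (0.686), and array 2 the lowest for Rab44 (0.721). Array 3 of that group was the highest for the means of MHC class I genes (0.726), type I interferon genes (0.734) and neuron markers (0.652), and array 4 the lowest for Gm8909 (0.713) and MHC class II genes (0.642). In O4+ PBS, array 6 was the highest for Tspan2 (0.645) and array 1 the lowest for Rnf122 (0.684).

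By limma's tests of the differences themselves, the response to IL1B differed between O4+ and CD11B+ cells at 4263 probes, and that difference itself differed between P10 and P5 at 3275 probes.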

How the results depend on the processing

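No called interaction of a named gene changed sign under the alternatives run, whereas those of shared genes near 0 did and the median interaction of neutrophil and monocyte markers went from 0.43 to -0.42 with normexp background correction. The count of 4263 interaction probes ran from 3165 (without O4+ IL1B array 2) to 5738 (without O4+ IL1B array 6) when arrays were left out singly. Scaling to the 75th percentile gave 10641 interaction probes, 19.2% more positive, and the authors' matrix gave 9521, 14.9% more positive, with 34 opposite probes. That correction gave a share of 49.3%, 1071 calls in O4+ cells, 847 in CD11B+ cells, 125 shared and 6 opposite. The slide as a fixed block gave 2391 interaction probes (44.8% more positive), 375 CD11B+ calls, 44 shared and 5 opposite, and as a random block 2714, 832, 133 and 10, with 1805 for the difference between P10 and P5. The slide block without CD11B+ PBS array 6, chosen after seeing the data, gave 2442 interaction probes, 53.2% more positive, and 9 opposite. Exchanging the thresholds (a ratio for the interaction and none for the responses) gave 2171 interaction probes (53.2%), 7083 O4+ calls, 4039 CD11B+ calls, 674 shared and 294 opposite.

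With arrays left out singly the more positive share ran from 48.8% to 54.0%, O4+ calls from 1874 to 2610, CD11B+ calls from 1036 (without CD11B+ PBS array 2) to 2759 (without CD11B+ PBS array 6), shared probes from 164 to 437 and opposite probes from 14 to 36 (without the same arrays), and the difference between P10 and P5 from 2900 to 4226. Of the values for named genes, 587 kept their side of the threshold, 23 lost the call and 1 gained it under the other settings, against 1075, 52 and 1 with arrays left out. Gbp11 lost its call in 21 of 37 settings, Slc1a3 in 19, Cxcl9 in 13 and Mobp in 9. Further, 42 list medians moved by more than the spread under other settings and 22 with arrays left out.

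Replicate numbers are shared by the groups, and both populations came from the same brains by the study's methods, but no label ties the numbers to them. Arrays of the same number and treatment had correlated deviations in 11 of 12 pairs (-0.05 to 0.70), and 10 O4+ and 11 CD11B+ arrays correlated best with their own number. A replicate block over all 4 groups gave 6279 interaction probes, 50.01% more positive, and within treatment 5836, 51.2% more positive. The cause of these changes was not tested. Dim probes have only a bound, and responses of 1 population rest on few slides that hold both treatments.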
